A study of Mus musculus with 6 samples.

Results

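The 9 genes described here mark the GABAergic (inhibitory) lineage of the developing cerebellum: *Ptf1a*, *Pax2*, *Tfap2a*, *Tfap2b*, *Lhx1*, *Lhx5*, *Skor2*, *Prdm13* and *Kirrel2*. They were picked by symbol as markers of that lineage, and are 9 of the 54532 genes in the count table. All 9 passed the filter on low counts, and 17505 genes were tested in all. The products of 8 act in transcription, whereas *Kirrel2* encodes an adhesion molecule of the immunoglobulin family at the cell surface. RNA came from whole cerebella of mice at postnatal day 1. The 3 control libraries were from *Tox3*f/f littermates and the 3 mutant libraries from *Nestin-cre;Tox3*f/f mice, so every animal carried a pair of floxed *Tox3* alleles. *Nestin-cre* expresses the recombinase widely in the nervous system, so the deletion is not limited to a GABAergic cell type. Only mutants are labelled as carrying the transgene, and its own effect and that of the *Tox3* deletion cannot be told apart. The question was whether the genes of the GABAergic lineage differ in cerebella in which *Tox3*, a high mobility group box regulator, was deleted in neural cells.

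Cerebellar neurons arise from a pair of germinal zones. The ventricular zone, where the basic helix-loop-helix factor Ptf1a is made, gives rise to the GABAergic Purkinje cells and interneurons, and the rhombic lip, where Atoh1 is made, gives rise to the glutamatergic granule cells. Ptf1a binds DNA in the PTF1 complex, together with an E protein (Tcf3, Tcf4 or Tcf12) and Rbpj, the DNA-binding partner of Notch, or its relative Rbpjl. *Kirrel2*, *Prdm13* and the AP-2 factors *Tfap2a* and *Tfap2b* act after *Ptf1a*. Pax2 marks precursors of GABAergic interneurons, and Lhx1, Lhx5 and the corepressor Skor2 act in differentiating Purkinje cells. Around birth the ventricular zone is nearly exhausted, whereas Purkinje cells have left the cell cycle and interneuron precursors still divide in the future white matter.

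PTF1 reads a 2-part DNA sequence, an E-box (CANNTG, here often CACCTG) beside the core letters bound by Rbpj (TTCCCA, or TGGGAA on the other strand), so the promoters of *Ptf1a* and of the members nearest to it are shown first. Each is the 250 bases before the RefSeq start site on build GRCm38.p6, written 5′ to 3′ on the strand of the gene, with CACCTG and TTCCCA on either strand in capitals.
*Kirrel2*, chr7:30457516-30457765, minus strand: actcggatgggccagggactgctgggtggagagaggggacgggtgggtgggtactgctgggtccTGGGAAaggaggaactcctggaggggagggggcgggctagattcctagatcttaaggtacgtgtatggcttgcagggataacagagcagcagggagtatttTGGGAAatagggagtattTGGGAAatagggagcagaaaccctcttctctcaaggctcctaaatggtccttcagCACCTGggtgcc
*Prdm13*, chr4:21685964-21686213, minus strand: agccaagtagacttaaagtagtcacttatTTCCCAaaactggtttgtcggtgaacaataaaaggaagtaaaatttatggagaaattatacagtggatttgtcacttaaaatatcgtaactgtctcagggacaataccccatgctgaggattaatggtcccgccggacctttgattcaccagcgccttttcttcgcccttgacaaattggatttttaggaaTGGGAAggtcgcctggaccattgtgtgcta
*Ptf1a*, chr2:19445413-19445662, plus strand: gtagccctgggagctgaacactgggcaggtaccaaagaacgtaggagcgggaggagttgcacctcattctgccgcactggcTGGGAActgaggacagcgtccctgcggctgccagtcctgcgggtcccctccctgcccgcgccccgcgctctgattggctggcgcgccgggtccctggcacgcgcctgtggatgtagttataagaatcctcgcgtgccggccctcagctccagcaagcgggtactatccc
The *Kirrel2* window held 3 Rbpj cores, starting at positions -186, -85 and -67 from the start site, and a CACCTG at -12. Windows with at least 3 cores made up 0.204% of 32851 mouse promoters searched in the same way. The *Kirrel2* cores at -85 and -67 lie in adjoining near-copies of the same short stretch, so they are not separate occurrences. The *Prdm13* window held 2 cores, at -221 and -30, and 2.77% of all promoters held at least 2. *Ptf1a* had 1 core, at -169, and 21.6% of promoters held at least 1. The *Prdm13* and *Ptf1a* windows held 0 E-boxes of any CANNTG form, which 66.2% of promoters held. The only E-box in the *Kirrel2* window was its CACCTG, which was not beside the nearest core, at -67. None of the windows shown therefore held the 2-part sequence with an E-box directly beside a core. *Lhx5* had no promoter entry, and *Skor2* was left out of the search. Of the 7 members searched, which have 10 start sites, 5 had a core in at least 1 window. A CACCTG, which 17.2% of promoters held, was in 2, *Pax2* and *Kirrel2*. The percentages are per window, whereas *Pax2* had 3 windows and *Tfap2a* had 2, so these counts of members are not like for like with them. These are matches of letters, not measured binding sites, and part of the *Kirrel2* window lies within non-coding isoforms of *Kirrel2* in GENCODE vM21.

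Total counts ranged from 15391854 to 17178478 reads per library, and 3 counts, the floor used here, corresponded to between 0.173 and 0.196 CPM (counts scaled to library size). Libraries of the same group differed from each other by more than sampling noise, with a chi-square of 3.63 to 10 per gene. *Tox3* itself had 987, 968 and 1003 counts in controls and 959, 970 and 951 in mutants (log2 fold change -0.11, SE 0.06, edgeR adjusted p = 0.252). This count covers all exons, and the part removed by the deletion was not examined, so it does not check the labels. *Atoh1* had 481 to 501 counts in the controls and 4 to 10 in the mutants, and fell by 6.40 on the log2 scale (SE 0.19, edgeR adjusted p = 8.85e-08). Throughout, "mutant" means a library labelled *Nestin-cre;Tox3*f/f.

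The GABAergic lineage genes moved in both directions. *Tfap2a*, *Tfap2b* and *Skor2* rose in the mutants, by 1.5-, 1.58- and 1.71-fold, and *Ptf1a* fell by 2.27-fold. *Pax2*, *Kirrel2* and *Lhx5* were 1.34- to 1.39-fold higher and *Lhx1* was 1.30-fold lower without reaching the fold threshold, and *Prdm13* was level between the groups. A gene was called where the adjusted p was under 0.01 and the log2 fold change beyond 0.5, the thresholds of the study. By that rule 3 of 9 members were called higher (33.3%, against 3.03% of all genes tested) and 1 lower (11.1%, against 3.63%), and 6.66% of all genes were called in either direction. Irrespective of fold, 8 of 9 had an adjusted p under 0.01 (88.9%, against 13.8%). The median log2 fold change of the 9 was 0.46, against -0.01 over all genes tested. In 8 of the 9 the control and mutant libraries did not overlap, 6 higher and 2 lower in mutants, whereas 40.5% of all genes tested did not overlap (20.4% higher and 20.1% lower). In whole tissue, a change in the number of cells of a type and a change in RNA per cell cannot be told apart.

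**Figure D1:**
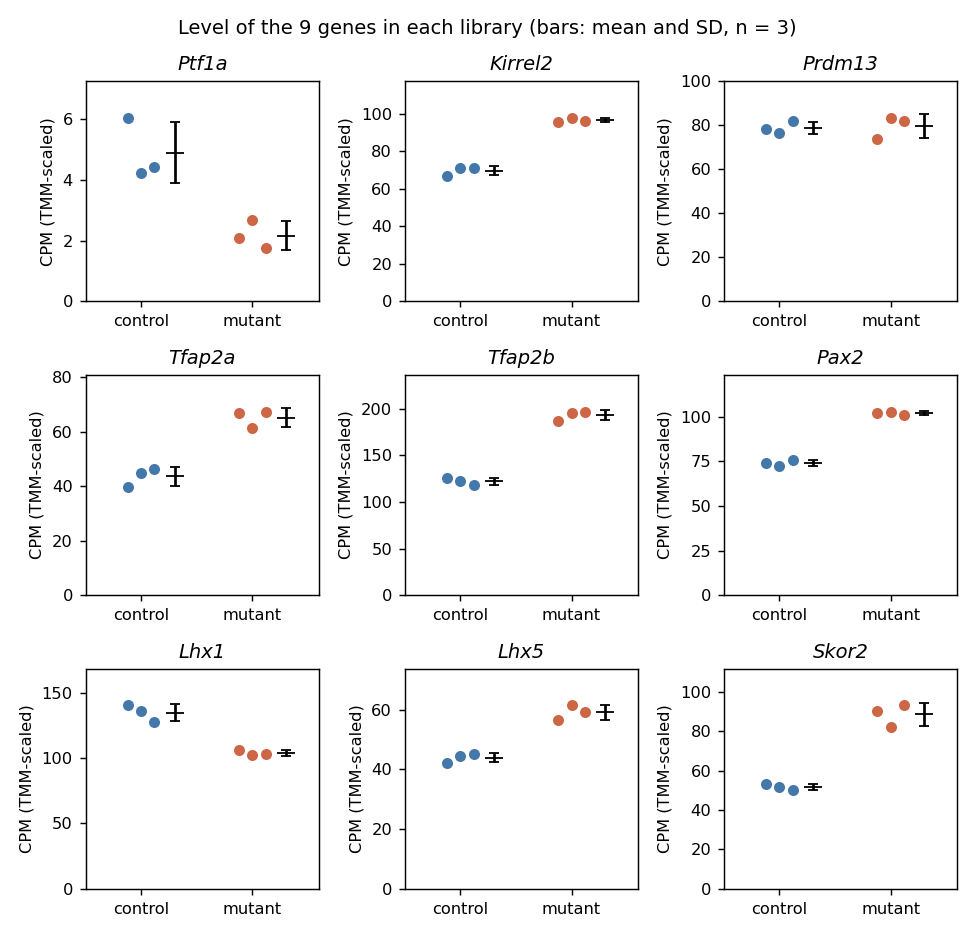
CPM (y axis, from 0, scaled by TMM) of the 9 genes in each of the 3 control (blue) and 3 mutant (orange) libraries, 1 point per library, with the group mean and SD (n = 3) in black. Only in the *Prdm13* panel do the groups overlap, with controls between 76.3 and 81.9 CPM and mutants between 73.5 and 83.4 CPM.

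*Ptf1a* (ENSMUSG00000026735, chromosome 2, 19445663 to 19447501, plus strand), the factor that sets GABAergic fate, was the least abundant member. It had 93, 65 and 69 counts in the control libraries and 36, 41 and 28 in the mutants, or 4.91 ± 1.0 and 2.16 ± 0.47 CPM (SD, n = 3). Every mutant library lay below every control, although the control with 93 counts stood well above the other 2. The log2 fold change was -1.18 (SE 0.24, 95% interval -1.71 to -0.65, edgeR adjusted p = 0.00552). This call was lost in 5 of 6 fits that left out 1 library. The log2 fold change was then -1.0 (adjusted p = 0.0225), -1.28 (0.0113) and -1.25 (0.0148) without control 1, 2 and 3, and -1.15 (0.0225) and -1.05 (0.0238) without mutant 1 and 3. The coefficient of variation was 20.4% in controls and 21.7% in mutants, the widest among the 9 genes in either group. *Ptf1aos*, an antisense RNA that overlaps *Ptf1a*, had 1 to 6 counts per library, at most 16.7% of the *Ptf1a* count. Whether counting used the strand is not given in the sources used here, so reads of overlapping genes on opposite strands cannot be told apart.

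*Kirrel2* (ENSMUSG00000036915, chromosome 7, 30447534 to 30457690, minus strand), a PTF1 target whose product sits on the surface of GABAergic progenitors, went the opposite way. Its counts were 1027, 1092 and 1108 in controls and 1660, 1502 and 1543 in mutants, or 69.7 ± 2.46 and 96.6 ± 1.15 CPM. The groups were far apart relative to their spread, yet the log2 fold change of 0.47 (SE 0.05, 95% interval 0.35 to 0.59, edgeR adjusted p = 0.000212) stayed under the fold threshold. Its divergent neighbour *Nphs1*, the nephrin gene, starts 625 bases away on the other strand. *Nphs1* had 534, 573 and 606 counts in controls and 854, 852 and 921 in mutants, and rose by 0.55 on the log2 scale (SE 0.08, edgeR adjusted p = 0.00114). The 2 genes do not overlap in the annotation.

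*Prdm13* (ENSMUSG00000040478, chromosome 4, 21677480 to 21685963, minus strand) encodes a PR-domain regulator that keeps ventricular zone progenitors on the GABAergic path. It had 1200, 1172 and 1276 counts in controls and 1275, 1280 and 1317 in mutants, or 78.8 ± 2.88 and 79.7 ± 5.35 CPM. The groups overlapped, and the log2 fold change was 0.02 (SE 0.06, edgeR adjusted p = 0.884). Its 95% interval, -0.13 to 0.16, excluded a difference of the size seen for any of the other 8 members.

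The 2 AP-2 factors both rose. *Tfap2a* (ENSMUSG00000021359, chromosome 13, 40715302 to 40738376, minus strand) had 607, 689 and 720 counts in controls and 1161, 938 and 1081 in mutants, or 43.5 ± 3.55 and 65.1 ± 3.48 CPM. The lowest mutant exceeded the highest control by 61.1 to 46.2 CPM, and the log2 fold change was 0.58 (SE 0.08, 95% interval 0.41 to 0.76, edgeR adjusted p = 0.000635). *Tfap2b* (ENSMUSG00000025927, chromosome 1, 19208914 to 19238576, plus strand) was the more abundant, with 1933, 1880 and 1840 counts in controls and 3242, 3006 and 3166 in mutants, or 122 ± 3.85 and 193 ± 5.55 CPM. Its log2 fold change was 0.66 (SE 0.05, 95% interval 0.56 to 0.77, edgeR adjusted p = 1.87e-05), with an interval wholly above the fold threshold. The longest run of bases shared by transcripts of the 2 genes was 29, against reads of 150. AP-2 factors are also made in tissue derived from the neural crest, so meningeal markers are given here. The summed level of 8 such genes was 385 to 412 CPM in controls and 565 to 682 CPM in mutants. Of the 8, the 2 collagen genes *Col1a1* and *Col1a2* were called higher (log2 fold changes 0.85 and 0.77), against 3.03% of all genes tested. These 2 made up most of the difference in the sum, at 97.5 and 167 CPM in controls against 176 and 285 CPM in mutants. At an edgeR unadjusted p under 0.05, 6 of 8 were higher. That cut is a loose one here, passed in either direction by at least 6469 of all 17505 genes tested. The fibroblast genes *Dcn* (61.5 against 59.5 CPM, log2 fold change -0.05) and *Lum* (14.5 against 13.0 CPM, -0.16) overlapped between the groups. The part of meningeal tissue in the values of *Tfap2a* and *Tfap2b* was not tested.

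*Pax2* (ENSMUSG00000004231, chromosome 19, 44756045 to 44837871, plus strand), the marker of interneuron precursors, had 1136, 1112 and 1183 counts in controls and 1774, 1579 and 1619 in mutants. The means were 74.1 ± 1.79 and 102 ± 1.07 CPM, with no overlap and a coefficient of variation of only 1.05% among mutants. The log2 fold change of 0.46 (SE 0.05, 95% interval 0.35 to 0.57, edgeR adjusted p = 0.00017) missed the fold threshold.

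Among the 3 Purkinje cell regulators, 1 was called and the other 2, which are close relatives, moved in opposite directions. *Skor2* (ENSMUSG00000091519, chromosome 18, 76856405 to 76900342, plus strand) had 820, 791 and 782 counts in controls and 1565, 1260 and 1494 in mutants, or 51.7 ± 1.59 and 88.5 ± 5.68 CPM. It had the largest rise of the 9 genes (log2 fold change 0.78, SE 0.06, 95% interval 0.63 to 0.92, edgeR adjusted p = 3.88e-05), and the lowest mutant, 82.1 CPM, was well above the highest control, 53.4 CPM. *Lhx5* (ENSMUSG00000029595, chromosome 5, 120431699 to 120441223, plus strand), a LIM-homeodomain factor, had 647, 684 and 702 counts in controls and 981, 942 and 949 in mutants, or 43.9 ± 1.57 and 59.0 ± 2.41 CPM. The groups did not overlap, and its log2 fold change was 0.43 (SE 0.07, 95% interval 0.28 to 0.57, edgeR adjusted p = 0.00139). *Lhx1* (ENSMUSG00000018698, chromosome 11, 84518284 to 84525535, minus strand), the other LIM-homeodomain factor, had 2154, 2092 and 1985 counts in controls and 1838, 1565 and 1653 in mutants, or 135 ± 6.52 and 104 ± 2.10 CPM. Every mutant was below every control (log2 fold change -0.38, SE 0.05, 95% interval -0.49 to -0.26, edgeR adjusted p = 0.000778), again within the fold threshold.

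The longest run of bases shared by *Lhx1* and *Lhx5* transcripts was 20, against reads of 150. *Lhx1os*, a non-coding RNA that starts 125 bases from *Lhx1* and runs the other way, had 629, 533 and 700 counts in controls and 744, 585 and 592 in mutants. These groups overlapped (log2 fold change -0.03, SE 0.10, edgeR adjusted p = 0.853). The antisense RNA *Gm27199*, which overlaps the start of *Lhx5*, had 53 to 92 counts per library, at most 10.7% of the *Lhx5* count, with a log2 fold change of 0.12 (SE 0.21, edgeR adjusted p = 0.714). Antisense genes that overlap *Tfap2a* and *Pax2* each held at most 3.61% and 1.69% of the count of the member.

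**Figure D2:**
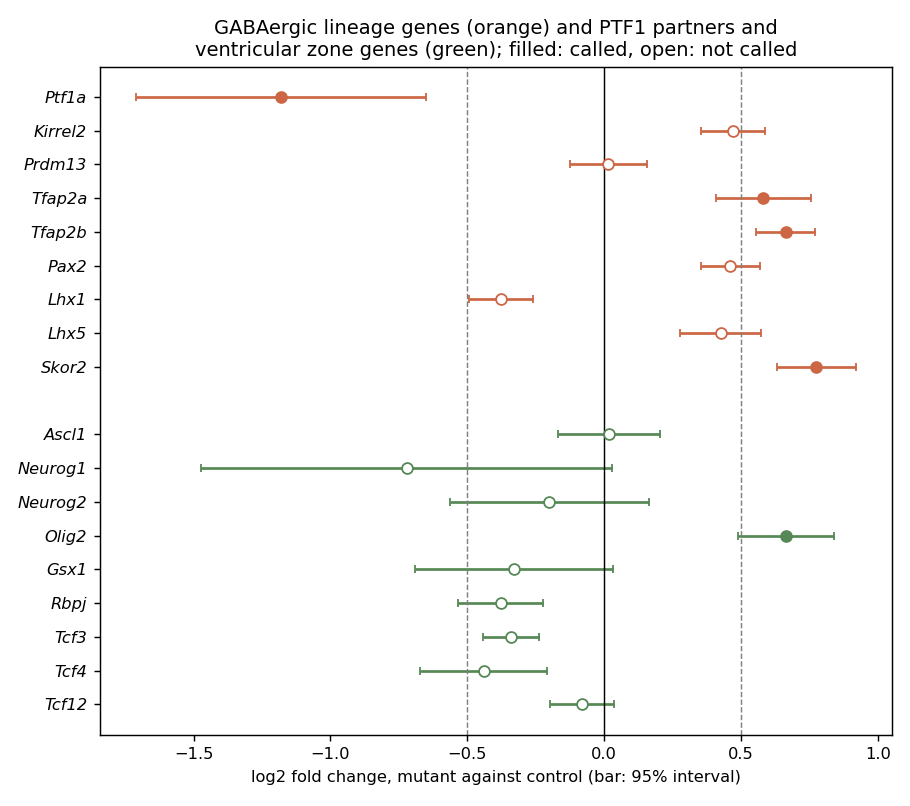
Log2 fold change of mutant against control (x axis) with its 95% interval for the 9 lineage genes (orange) and for 9 PTF1 partners and ventricular zone genes (green), with filled points for genes called and open points for the rest. The dashed lines mark log2 fold changes of -0.5 and 0.5, and among the lineage genes only the intervals of *Ptf1a*, *Tfap2b* and *Skor2* lie wholly beyond them.

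A test of the fold threshold itself is stricter. With glmTreat against a log2 fold change of 0.5, 0 of 9 members had an adjusted p under 0.01, although 3 had an unadjusted p under 0.05. Few genes of any kind passed it, with 30 higher and 145 lower among all 17505 tested. The adjusted p was 0.0133 for *Skor2*, 0.0423 for *Tfap2b*, 0.11 for *Ptf1a* and 0.789 for *Tfap2a*. With DESeq2 the counts were those of edgeR, 3 higher and 1 lower. The libraries also fall into 3 with high and 3 with low counts from the Y chromosome, a split made after the data were seen. The former were control 1 and mutants 1 and 3, and the latter controls 2 and 3 and mutant 2. The difference of mean log2 CPM between mutants and controls had the same sign in both sets for 8 members. For *Ptf1a* it was -1.67 in the high set and -0.70 in the low set, for *Tfap2a* it was 0.77 and 0.42, and for *Prdm13* it was -0.01 and 0.08.

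Because a ratio inside a library needs no scaling between libraries, 4 pairs of members were compared as ratios of counts per length. The ratio of *Lhx5* to *Lhx1* was 0.455, 0.495 and 0.536 in controls and 0.808, 0.912 and 0.870 in mutants, a 1.74-fold shift with no overlap. *Kirrel2* to *Ptf1a* was 4.21, 6.39 and 6.11 in controls and 17.4, 13.9 and 20.7 in mutants, a 3.12-fold shift with no overlap. *Pax2* to *Skor2*, an interneuron marker over a Purkinje cell gene, was 0.804, 0.816 and 0.878 in controls and 0.658, 0.728 and 0.629 in mutants, again with no overlap. *Tfap2a* to *Tfap2b* was 0.406, 0.474 and 0.506 in controls and 0.463, 0.403 and 0.442 in mutants, so the groups overlapped (two-sided exact permutation test p = 0.4). For each of the other 3 ratios the two-sided exact permutation test gave p = 0.1, the smallest that the 20 arrangements of 3 against 3 allow, and 0.133 after Benjamini-Hochberg adjustment over the 4 ratios. No ratio could therefore pass 0.05.

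**Figure D3:**
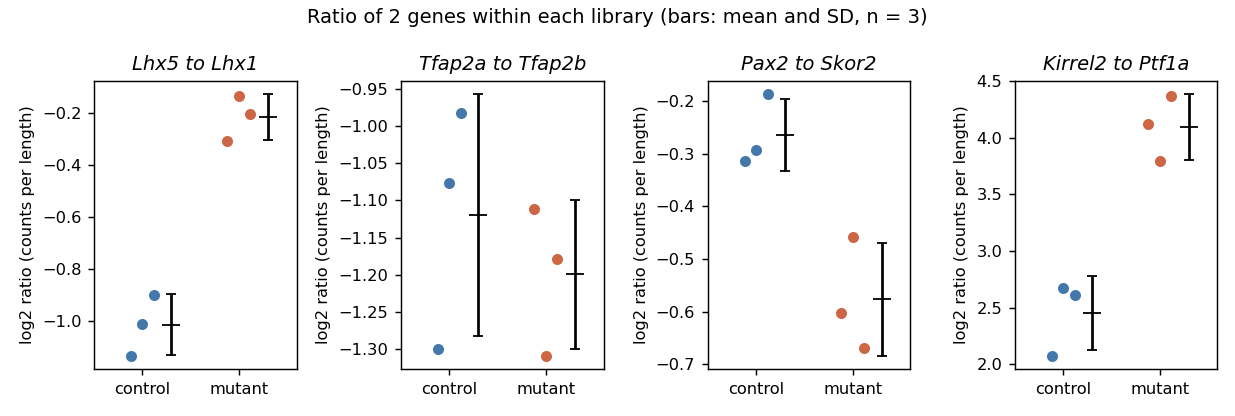
Log2 ratio of counts per length (y axis, a separate range in each panel) for 4 pairs of genes in each control (blue) and mutant (orange) library, with the group mean and SD (n = 3) in black. The groups are apart for *Lhx5* to *Lhx1*, *Pax2* to *Skor2* and *Kirrel2* to *Ptf1a*, and overlap for *Tfap2a* to *Tfap2b*.

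Levels of different genes were compared in FPKM, which accounts for transcript length. In controls *Lhx1* was the highest member at 32.8 ± 1.58 FPKM. It was followed by *Tfap2b* (19.1 ± 0.59), *Prdm13* (18.2 ± 0.67), *Kirrel2* (17.5 ± 0.63), *Skor2* (16.3 ± 0.49) and *Lhx5* (16.2 ± 0.59), and each of these 5 overlapped its neighbours among them. *Pax2* (13.6 ± 0.33), *Tfap2a* (8.80 ± 0.72) and *Ptf1a* (3.22 ± 0.65) followed, each apart from the gene above it. In mutants the order changed at the top. *Tfap2b* (30.4 ± 0.81 FPKM), *Skor2* (28.0 ± 1.94) and *Lhx1* (25.3 ± 0.62) came first, each overlapping the next, and *Kirrel2* (24.4 ± 0.16) and *Lhx5* (21.8 ± 0.79) each stood apart. *Pax2* (18.8 ± 0.15) and *Prdm13* (18.5 ± 1.18) overlapped, and *Tfap2a* (13.2 ± 0.77) and *Ptf1a* (1.43 ± 0.30) were again the lowest. The 9 genes together summed to between 620.6 and 626.0 CPM in controls and between 780.6 and 800.0 CPM in mutants.

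The partners of Ptf1a in the PTF1 complex did not pass the thresholds for a call. *Rbpj* had 1082, 1148 and 998 counts in controls and 915, 854 and 843 in mutants, with no overlap (log2 fold change -0.38, SE 0.07, edgeR adjusted p = 0.00354). The E protein gene *Tcf3* had a log2 fold change of -0.34 (SE 0.05, edgeR adjusted p = 0.000643), *Tcf4* of -0.44 (SE 0.10, 0.0122) and *Tcf12* of -0.08 (SE 0.05, 0.298). Without mutant 2, *Tcf4* was called lower, at -0.57. *Rbpjl* had 1 to 14 counts per library and was not tested. Of the 10 genes listed as PTF1 partners or ventricular zone progenitor genes, 9 were tested, 1 was called higher and 0 lower with edgeR and with DESeq2, with a median log2 fold change of -0.33. Among all genes tested, edgeR called 3.03% higher and 3.63% lower. Without a fold threshold 2 of the listed genes were lower, against 1268 lower among all 17505 genes tested. At an unadjusted p under 0.05 edgeR gave 3 lower, a cut passed in either direction by at least 6469 genes. The gene called was *Olig2*, a factor of Purkinje cell progenitors and of the oligodendrocyte lineage, with 535, 523 and 613 counts in controls and 962, 921 and 900 in mutants (log2 fold change 0.66, SE 0.08, edgeR adjusted p = 0.000307).

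Genes of the cells that arise from the lineage were mostly higher. All 15 Purkinje cell genes were tested, of which 5 were called higher and 0 lower with edgeR (0 lower at an unadjusted p under 0.05 and with DESeq2). In 13 of the 15 the groups did not overlap, higher in mutants, and the median log2 fold change was 0.45. Among all genes tested, 20.4% did not overlap and were higher, 3.03% were called higher and 3.63% were called lower. At least 6469 of the 17505 had an edgeR unadjusted p under 0.05, in either direction. *Car8* (0.63, SE 0.06, edgeR adjusted p = 0.000104) and *Calb1* (0.68, SE 0.07, 0.00014), which encode calcium-signalling proteins of Purkinje cells, and *Arhgef33* (0.59, SE 0.06, 0.000149) had the smallest p. Of 10 inhibitory transmitter and interneuron genes, 6 were called higher and 0 lower with edgeR (0 lower at an unadjusted p under 0.05 and with DESeq2), with a median of 0.52. The smallest p were those of *Gad1*, which makes GABA (0.58, SE 0.04, edgeR adjusted p = 2.6e-05), and *Slc32a1*, which loads it into vesicles (0.65, SE 0.06, 6.61e-05). The medians of these lists are close to the 0.46 of the 9 lineage genes, but no test compared the lists.

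The factors of the rhombic lip, the other germinal zone, were mostly lower. Of 17 tested, 8 were called lower and 1 higher, with a median log2 fold change of -0.42. Among all genes tested, 3.63% were called lower and 3.03% higher. The 1 higher, *Meis2* (log2 fold change 0.66), which is named because of its value, was not called without mutant 1 or mutant 3, which left 0 higher. *Barhl1* had 4516 to 5033 counts in controls and 768 to 941 in mutants (log2 fold change -2.59, SE 0.06, edgeR adjusted p = 3.79e-08). *Neurod1*, which drives granule neuron differentiation, fell by 1.16 on the log2 scale (SE 0.05, edgeR adjusted p = 6.6e-07). Values of every gene are shares of a library, and the summed level of these 17 factors was 3513 to 3646 CPM in controls and 2324 to 2468 CPM in mutants. The part of such shifts in composition in the higher shares of the GABAergic genes was not tested.

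Other genes of the AP-2, LIM-homeodomain, Pax, Prdm, Skor and Kirrel families lay on both sides of 0, with 9 higher and 4 lower among those tested. Of 20 relatives, 13 were tested, and 0 were called higher and 2 lower with edgeR and with DESeq2. The median log2 fold change was 0.09. At an edgeR unadjusted p under 0.05, 4 were higher. At least 6469 of all 17505 genes tested passed that cut, in either direction. Among all genes tested, edgeR called 3.03% higher and 3.63% lower. The 2 relatives called lower were *Pax6*, made by granule cell progenitors and also among the rhombic lip factors (-0.99, SE 0.06, edgeR adjusted p = 8.27e-06), and *Prdm8* (-0.59, SE 0.08, 0.000705). *Pax3* was higher with no overlap (0.39, SE 0.06, edgeR adjusted p = 0.00106) but under the fold threshold. The 7 untested relatives, which include the AP-2 genes *Tfap2d* and *Tfap2e*, had no more than 9 counts in any library.

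**Figure D4:**
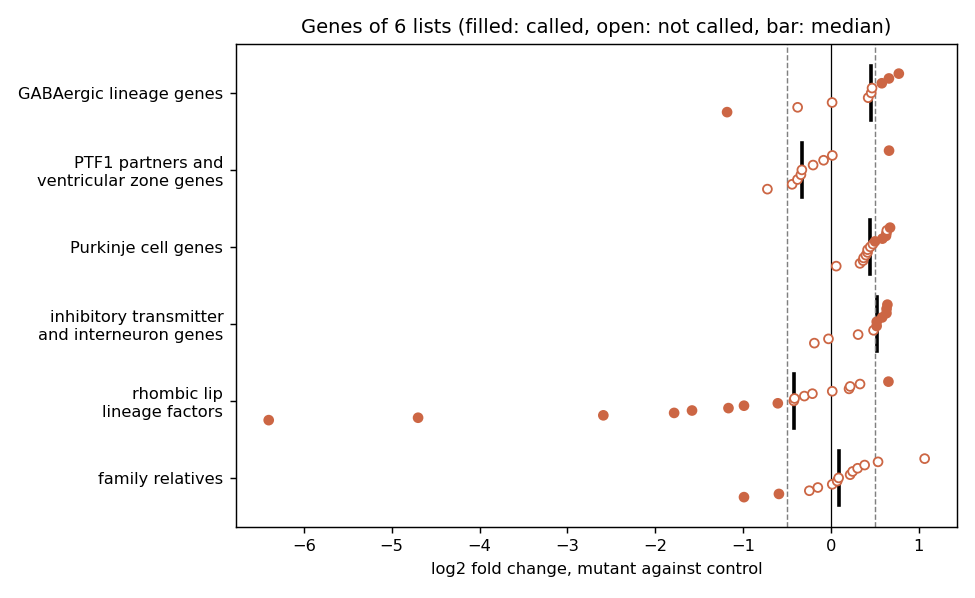
Log2 fold change of mutant against control (x axis) for each tested gene of 6 lists, 1 point per gene, filled where called, with the median as a black bar and dashed lines at -0.5 and 0.5. The median is 0.46 for the GABAergic lineage genes, 0.45 for the Purkinje cell genes and 0.52 for the inhibitory transmitter genes, against -0.42 for the rhombic lip factors.

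Markers of tissue outside the cerebellum or of other cells were checked as whole lists. Hindbrain *Hox* genes were near 0, with a summed level of 0.193 to 0.781 CPM in controls and 0.809 to 0.923 CPM in mutants over 8 genes, of which *Hoxb8* was at 0 in every library. The 8 midbrain markers summed to 75.3 to 87.7 CPM in controls and 60.8 to 64.4 CPM in mutants, with *Foxa1* at 0 throughout and *Otx2*, which is also made in rhombic lip and choroid plexus cells, called lower (log2 fold change -1.16). The lower sum was that of *Otx2*, at 52.9 CPM in controls and 23.6 CPM in mutants. The median log2 fold change of the 5 midbrain markers tested was 0.27, with 3 higher and 2 lower. *Nkx2-2*, like 20.4% of all genes tested, was higher without overlap (16.8 against 22.7 CPM, 0.43, edgeR adjusted p = 0.023). The untested *Th* had 4, 6 and 4 counts in controls and 33, 2 and 33 in mutants. Choroid plexus markers varied most, from 75.6 to 142 CPM in controls and from 13.3 CPM in mutant 2 to 758 CPM in mutant 3. The part of choroid plexus tissue in the values of the members was not tested. Endothelial markers (347 to 387 against 337 to 352 CPM) and erythrocyte markers (98.7 to 106 against 82.2 to 117 CPM) gave 0 calls with edgeR, as did choroid plexus markers. These lists had 6, 5 and 6 genes tested, and 6.66% of all genes tested were called, so 0 calls say little. At an edgeR unadjusted p under 0.05 there were 1, 0 and 3 genes in these lists. At least 6469 of all 17505 genes tested passed that cut.

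The genes whose profile over the 6 libraries was most like those of the 3 members with the highest mean CPM over the libraries, which is not corrected for length, were named by Pearson's r of log2 CPM among 12677 genes. For *Tfap2b* they were *Camk2g* (r = 0.999) and *Shisa6* (0.999), for *Lhx1* they were *Rpl4* (0.998) and *Ptbp1* (0.998), and for *Pax2* they were *Grik4* (0.999) and *2810459M11Rik* (0.999). Between 723 and 754 genes had an r above 0.95 with each member, since 6 libraries in 2 groups share the difference between the groups, so the order among them is a description only.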

How the data were processed

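Messenger RNA of P1 mouse cerebella was captured on poly-T beads, and the authors obtained 150 bp paired-end reads from 3 control and 3 mutant libraries. The authors removed adapters and low-quality reads, aligned to mm10 with HISAT2 2.0.5, and counted reads per gene with featureCounts 1.5.0-p3. The deposited counts are raw, and the deposited FPKM values were made by the authors from those counts and gene length. Which annotation was counted, whether strand was used and how multi-mapping reads were treated are not given in the sources used here.

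From the counts, genes with low counts were removed with filterByExpr, leaving 17505 genes. Libraries were scaled with TMM, and mutants were compared with controls by the quasi-likelihood test of edgeR 4.0.16 (R 4.3.3) without covariates, with Benjamini-Hochberg adjustment over all genes tested. CPM values are scaled the same way. DESeq2 1.42.0, the tool of the study, and limma 3.58.1 on log2(FPKM + 1) or log2(FPKM + 0.1) served as alternatives, and each library was left out in turn. The scripts were tested on simulated counts. Ratios were counts plus 0.5 divided by exon length. The genes named outside the 9 are Tox3, Atoh1, Ptf1a-binding partners, at most the 3 genes of smallest p in each list (1 such gene is not reported here), the 2 nearest profiles of the 3 members with the highest mean CPM, overlapping or adjacent genes, and leading marker genes chosen after their values were seen. Members and lists were chosen with earlier results of these data known. Gene coordinates are those of GENCODE vM21 and of the deposited table (GRCm38), and promoter sequences are from RefSeq (GRCm38.p6). No source says that libraries of a group come from separate animals, so p-values measure the spread between these libraries. Floors cover counting error only.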

Additional observations from a re-analysis of the deposited data

How the results depend on the processing

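The 3 higher calls among the 9 lineage genes remained 3, and the lower call 1, under DESeq2, other scalings, other count filters and a term for the summed Y-chromosome counts. Without a fold threshold 6 members were called higher and 2 lower, and with glmTreat against 0.5 there were 0 in each direction (edgeR, with 3 at an unadjusted p under 0.05). The lower call, *Ptf1a*, was also lost with limma on log2(FPKM + 1) without a filter, giving 0, and the count ranged from 0 to 1 when 1 library was left out. *Prdm13*, which was never called, changed sign to -0.008, -0.009 and -0.006 without control 2, mutant 2 and mutant 3, and reached 0.07 without mutant 1. In the lists, glmTreat gave 0 higher calls for PTF1 partner, Purkinje cell, inhibitory transmitter and rhombic lip genes, and 1 lower call for family relatives. Over all 17505 genes tested, glmTreat gave 30 higher and 145 lower calls. Without a fold threshold there were 2 lower calls among 9 PTF1 partner genes, 11 higher among 15 Purkinje cell genes and 2 higher among 13 family relatives. The same setting gave 1147 higher and 1268 lower calls over all 17505 genes tested. Leaving out 1 library gave 0 to 1 lower calls for PTF1 partner genes (1 without mutant 2), 0 to 1 higher calls for rhombic lip factors (0 without mutant 1 or mutant 3) and 0 to 1 higher calls for family relatives (1 without mutant 2). The limma fits gave 0 higher rhombic lip calls, and without a filter 1 lower call for family relatives. Family relatives had 1 higher call without the count filter and 1 at an adjusted p under 0.05. The cause of these differences was not tested. All 4 ratios kept their direction under every alternative run.

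Deviations of same-numbered control and mutant libraries correlated at 0.24, 0.26 and -0.17, and not every library correlated best with its own number. Control and mutant libraries alike in Y-chromosome counts correlated at 0.24 to 0.27, and all other correlations were negative. The correlations thus followed the Y-chromosome split, so they cannot tell whether the replicate numbers pair the libraries. With the replicate block, 3 members were called higher and 1 lower, as without it. Over all genes the replicate block gave 561 higher and 696 lower calls, against 530 and 635. The number of libraries limits the ratio tests, and low counts limit *Ptf1a*, *Ptf1aos* and *Rbpjl*.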
